A study of Homo sapiens with 26 samples.

Results

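The genes examined here encode the actin core, the tip links and a membrane scaffold of brush border microvilli. They were chosen by name: VIL1, ESPN, EPS8L3 and MYO1A of the actin core, CDHR2, CDHR5, USH1C, ANKS4B and MYO7B of the intermicrovillar adhesion complex, and the transporter scaffold PDZK1. Each of the 10 symbols matched 1 Ensembl identifier, among 62703 identifiers in the count tables of Panc10.05 and BxPC3 and 62754 in that of AsPC-1. The rule that matched rows to symbols used no measured value. The members were, however, chosen with earlier results of these data known, so their counts and medians below are not independent of these data. Of the 10 members, 9 passed the filter on low counts in each line: CDHR5 was not tested in Panc10.05 or BxPC3, and PDZK1 was not tested in AsPC-1.

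The study sequenced poly(A) RNA of 3 established lines of human pancreatic ductal adenocarcinoma, as 26 libraries. In Panc10.05 and BxPC3 a construct for an HNF4α isoform was switched on with doxycycline, and every group of both lines received the drug. Panc10.05 had 2 libraries each of P1-a2 (25 ng/mL), P2-a8 (12.5 ng/mL) and a control named GFP (25 ng/mL), so isoform and dose cannot be told apart in that line. BxPC3 had 2 libraries each of P1-a2, P2-a8 and a control named EV, all at 500 ng/mL. In AsPC-1 (ASPC1 in the labels) CRISPR interference, which blocks transcription at a promoter through a guide RNA and an inactive Cas9, was aimed at the P1 promoter of HNF4A (guides sgP1E and sgP1J), at P2 (sgP2D and sgP2G) or at both (sgDual2 and sgDual3). Each of these guides and the control guide sgNC had 2 libraries, which gives 4 libraries for each target and 2 for sgNC. Whether cells of a group were a pool or 1 clone, and whether replicates came from separate cultures, is not given in the sources used here, so the spread between replicates may be technical. Line, drug dose and control construct change together between the induced lines. The number that opens the sample titles changes with them, and what it stands for is not given in the titles.

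A microvillus is a finger of membrane held up by a bundle of parallel actin filaments. Villin and espin bundle the filaments, and the motor myosin 1A ties the bundle to the membrane. At the tips, the protocadherins CDHR2 and CDHR5 join neighbouring microvilli, and inside the cell they are held by harmonin (USH1C), ANKS4B and myosin 7B. This brush border is a feature of absorptive cells of the intestine and kidney, and a shorter one lines pancreatic ducts. HNF4α is a nuclear receptor whose 2 promoters, P1 and P2, give isoforms with different N termini, and it is known as a regulator of genes of the intestinal brush border.

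The promoters of the members are shown because the induced and repressed factor binds DNA directly. RefSeq promoter windows of GRCh38.p14, each reaching from 250 bases before to 50 bases after a transcript start, were matched for 7 of the 10 members, with 12 windows in all. Both strands were searched for the HNF4 motifs CAAAGTCCA and CAAAGGTCA, which cannot match the same 9 bases, for the partial HNF1 motif GTTAATNAT and for TATAAA. The first motif stood in windows of 2 members, PDZK1 and MYO1A, and in 0.384% of all 35116 windows of that length. The motif CAAAGGTCA was in none of the 12 windows and in 0.407% of all. CDHR2 alone held GTTAATNAT, which was in 0.792% of all windows, and TATAAA was found for MYO7B and MYO1A and in 11.5% of all. Below are 262 bases for each of 4 members, 250 before the start and 12 after it, 5′ to 3′ along the gene, with matches in capitals. In these stretches PDZK1 and MYO1A carry the HNF4 motif, in MYO1A as its reverse complement and together with TATAAA. CDHR2 carries the partial HNF1 motif. ANKS4B, the member with the deepest fall under dual repression, carries none of the 4.
PDZK1: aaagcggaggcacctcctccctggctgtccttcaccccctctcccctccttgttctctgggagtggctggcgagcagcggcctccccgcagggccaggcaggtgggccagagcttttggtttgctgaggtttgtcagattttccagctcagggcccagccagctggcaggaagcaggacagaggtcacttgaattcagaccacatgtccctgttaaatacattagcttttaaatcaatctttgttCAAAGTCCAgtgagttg
MYO1A: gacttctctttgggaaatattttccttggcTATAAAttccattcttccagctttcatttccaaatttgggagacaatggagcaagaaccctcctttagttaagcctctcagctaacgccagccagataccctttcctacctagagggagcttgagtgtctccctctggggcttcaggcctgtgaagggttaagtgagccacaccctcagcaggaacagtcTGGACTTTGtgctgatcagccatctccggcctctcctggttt
CDHR2: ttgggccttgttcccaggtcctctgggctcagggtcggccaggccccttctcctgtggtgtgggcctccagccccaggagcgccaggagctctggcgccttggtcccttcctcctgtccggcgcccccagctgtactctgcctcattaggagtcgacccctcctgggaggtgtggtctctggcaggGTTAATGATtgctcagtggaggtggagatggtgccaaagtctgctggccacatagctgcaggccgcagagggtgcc
ANKS4B: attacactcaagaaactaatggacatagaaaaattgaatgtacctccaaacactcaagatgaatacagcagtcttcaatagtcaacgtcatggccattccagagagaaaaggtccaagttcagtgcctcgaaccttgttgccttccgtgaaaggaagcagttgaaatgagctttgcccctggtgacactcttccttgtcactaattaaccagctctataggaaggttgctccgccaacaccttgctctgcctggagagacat
The printed stretches lie at chr1:145707389-145707650 (minus strand), chr12:57050118-57050379 (minus), chr5:176549092-176549353 (plus) and chr16:21233449-21233710 (plus). The HNF4 motif of PDZK1 begins 5 bases before this start and covers chr1:145707397-145707405. In MYO1A it begins 30 bases before the start and covers chr12:57050151-57050159. The partial HNF1 motif of CDHR2 begins 64 bases before the start. MYO1A and CDHR2 each have another window, at chr12:57051149-57051448 and chr5:176542261-176542560, which held none of the 4 motifs. Those windows cover the gene starts given below, and the printed stretches of PDZK1, MYO1A and CDHR2 lie inside the genes. For PDZK1, neither window covers the gene start given below. The shares given are per window, while a member can have several windows. A match is a description of the letters and not evidence of binding.

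Genes lie on GRCh38 as follows in GENCODE v29, which serves to place them and gives the exon lengths used per kilobase. VIL1 spans chr2:218419092-218453295 (plus strand), ESPN chr1:6424776-6461367 (plus), EPS8L3 chr1:109750080-109764027 (minus) and MYO1A chr12:57028517-57051198 (minus). CDHR2 spans chr5:176542511-176595974 (plus), CDHR5 chr11:616565-626078 (minus), USH1C chr11:17493895-17544416 (minus), ANKS4B chr16:21233665-21253845 (plus) and MYO7B chr2:127535802-127637729 (plus). PDZK1 spans chr1:145670852-145708148 (minus). The libraries were made with a directional kit, but the strand setting of the counting is not given in the sources used here, so counts of overlapping genes are uncertain. Exons of VIL1 overlap those of USP37 on the other strand over 3045 bases, yet VIL1 had 2 and 7 counts in the Panc10.05 controls while USP37 had at least 1059 in every Panc10.05 library. ESPN shares 383 exonic bases with TNFRSF25 and CDHR2 shares 173 with GPRIN1, both on the other strand, and MYO1A shares 112 with TAC3 on its own strand, where TAC3 had at most 42 counts in any AsPC-1 library. ESPN and PDZK1 have near-identical copies, ESPNP and PDZK1P1, that had at most 7 and 0 counts in any library. Reads shared with a copy could have been dropped, so the levels of ESPN and PDZK1 are uncertain.

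The libraries of Panc10.05 held 34618745 to 46827673 counts, those of BxPC3 26369154 to 37483772 and those of AsPC-1 26079388 to 50662077. Levels are in CPM, counts relative to the library's total, scaled by edgeR's trimmed mean of M-values, and 3 counts correspond to between 0.0585 and 0.116 CPM in any library. A gene is called when its p-value from edgeR's quasi-likelihood test, adjusted by the Benjamini-Hochberg (BH) method over all genes tested in that line, is under 0.05, and every adjusted p below is of this kind. HNF4A itself was at 0.240 and 0.0580 CPM in the Panc10.05 controls, 10.7 and 12.98 under P1-a2 and 37.6 in both libraries under P2-a8. In BxPC3 it was at 1.08 and 0.464 CPM in the controls, 9.76 and 11.6 under P1-a2 and 12.6 and 14.2 under P2-a8. In AsPC-1 it was at 206 and 219.8 CPM with sgNC, between 108.9 and 145.5 with sgP1, between 76.7 and 93.9 with sgP2 and between 3.19 and 13.6 with sgDual. Counts per gene do not separate P1 from P2 transcripts, nor the construct from the cell's own gene. The epithelial markers EPCAM, KRT7, KRT8, KRT18, KRT19 and CDH1 summed to between 5824 and 18031 CPM in every library, and all 6 were detected in every group. Their sum moved with the groups: it was 5824 to 5888 CPM in the Panc10.05 controls, 7611 to 8691 under P1-a2 and 9601 to 10078 under P2-a8, and 7720 to 7976, 10287 to 10999 and 8982 to 9157 CPM in the same groups of BxPC3. In AsPC-1 it was 14300 to 14593 CPM with sgNC, 8298 to 18031 with sgP1, 10178 to 11675 with sgP2 and 11259 to 15970 with sgDual. Acinar markers summed to at most 1.12 CPM in any library, endothelial markers to at most 9.12 and leukocyte markers to at most 9.86. PTPRC, the pan-leukocyte gene, was at 0 in all Panc10.05 libraries and in BxPC3 under P2-a8. It had counts in the other groups of BxPC3 and in every group of AsPC-1. Fibroblast markers summed to 4.67 to 7.16 CPM in Panc10.05. In BxPC3 they summed to 13.2 to 14.3 CPM in the controls, 17.3 to 19.3 under P1-a2 and 19.01 to 19.5 under P2-a8. In AsPC-1 they summed to 165 to 179 CPM with sgNC, 178 to 200.03 with sgP1, 132 to 168 with sgP2 and 280 to 301 with sgDual. The part of these markers in the results was not tested.

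All 9 tested members rose under either isoform in Panc10.05. Of all tested genes, 31.5% were called higher and 30.5% lower for P1-a2 against control, and 23.7% higher and 22.5% lower for P2-a8. The median log2 fold change of the 9 members was 5.01 for P1-a2 and 4.51 for P2-a8, beside 0.02 and 0.00 over all tested genes. The comparisons share the control libraries. The filter kept a gene that was high enough in as many libraries as the smallest group holds. Members near 0 in the controls, such as VIL1, USH1C and ANKS4B, were thus tested only through the induced groups. CDHR5, near 0 in every group, is outside these counts and medians, so the filter partly sets them. All 9 calls held in both comparisons under every alternative run, which covered other filters, scalings, tests, subsets of groups, the replicate number as a term and each library left out. Because the RNA comes from whole cultures, a change in the share of expressing cells and a change in RNA per cell cannot be told apart.

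In BxPC3, all 9 tested members rose under P1-a2 and 7 rose under P2-a8. Here 17.1% of all tested genes were called higher and 14.9% lower for P1-a2, against 4.30% higher and 2.69% lower for P2-a8. The members' median log2 fold change was 5.28 for P1-a2 and 3.31 for P2-a8, and the medians over all genes were -0.01 and 0.01. The limit of the filter holds here as well: USH1C, ANKS4B and MYO7B had 0 control counts and were tested only through the induced groups. ESPN and CDHR2 were the members not past the threshold under P2-a8, and without NC replicate 1 the count under P2-a8 was 4.

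**Figure D1:**
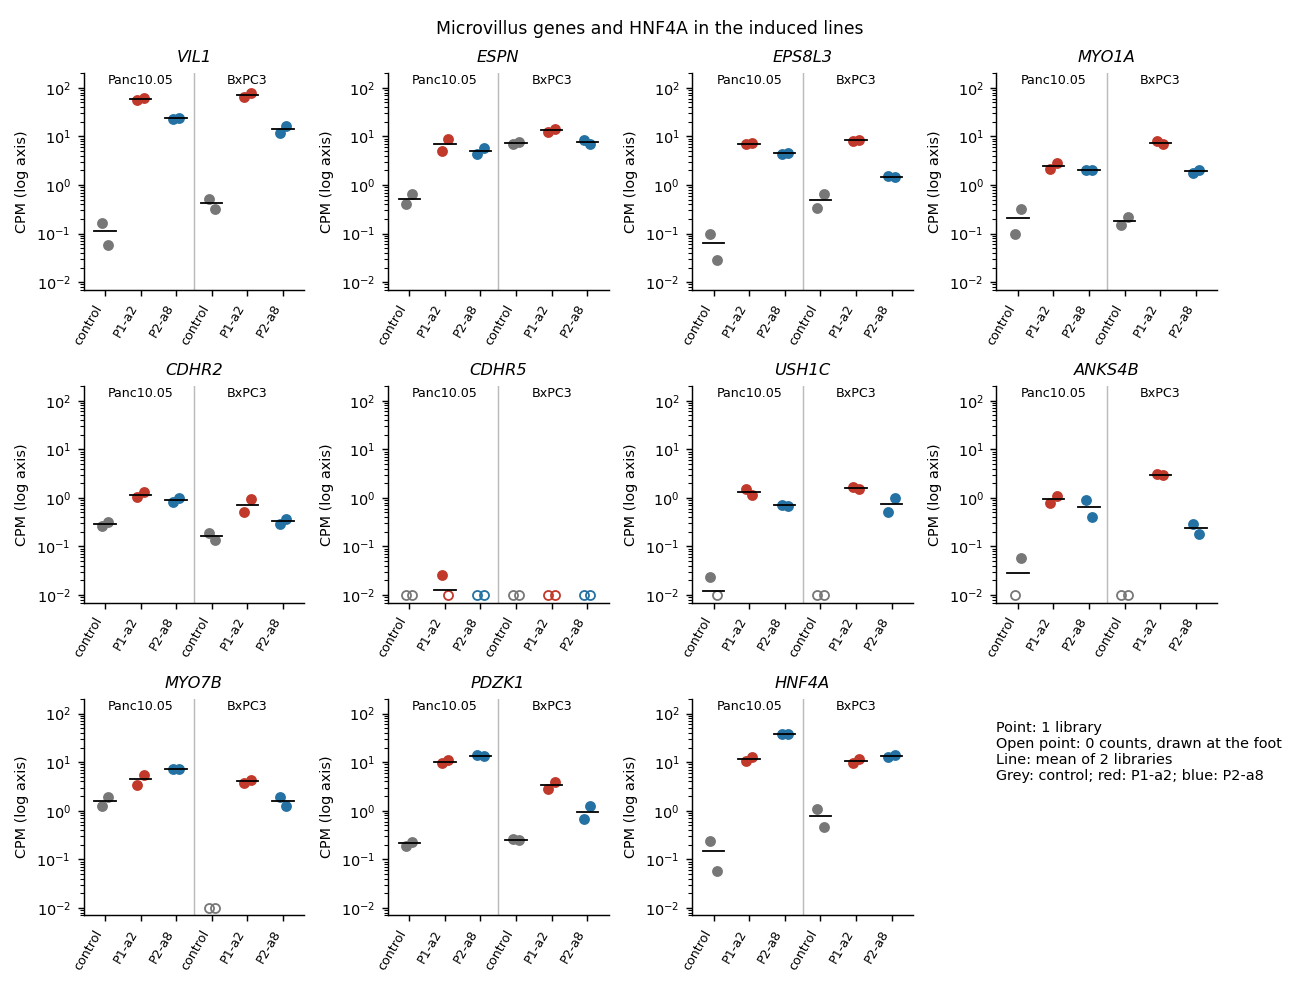
Level of each member and of HNF4A in CPM on a log axis, for each library of Panc10.05 and BxPC3. Points are libraries, lines are means of 2 and open points at the foot are libraries with 0 counts; VIL1 reaches 55.5 to 79.8 CPM under P1-a2 in both lines, and CDHR5 stays at or near 0.

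Among the genes of the actin core, VIL1, which encodes the bundling and severing protein villin, moved most in Panc10.05. VIL1 was at 0.168 and 0.0580 CPM in the Panc10.05 controls, 55.5 and 60.9 under P1-a2 and 23.1 and 24.1 under P2-a8. The 3 groups did not overlap, and the order of VIL1 was not that of HNF4A, which was higher under P2-a8. The log2 fold change of VIL1 against control was 8.91 (SE 0.18, BH-adjusted p 4.57e-35) for P1-a2 and 7.61 (SE 0.20, BH-adjusted p 2.24e-30) for P2-a8, and rests on 9 control counts in all. The SE is derived from the F statistic. At so few control counts it is smaller than counting error alone would give, so it understates the uncertainty of the fold. The same holds for EPS8L3 and PDZK1 against the Panc10.05 controls below. In BxPC3, VIL1 was at 0.521 and 0.328 CPM in the controls, 64.6 and 79.8 under P1-a2 and 11.9 and 16.8 under P2-a8. Again the groups did not overlap, with log2 fold changes of 7.45 (SE 0.28, BH-adjusted p 8.88e-07) and 5.11 (SE 0.31, BH-adjusted p 5.65e-05). VIL1 was above every other member per kilobase of exon under P1-a2 in both lines, at 8.41 ± 0.547 CPM per kb in Panc10.05 and 10.4 ± 1.56 in BxPC3 (SD, n = 2 each).

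EPS8L3 encodes a member of the EPS8 family, whose founding protein caps and bundles actin at microvillus tips. Its level in Panc10.05 was 0.0961 and 0.0290 CPM in the controls, 6.83 and 7.17 under P1-a2 and 4.44 and 4.54 under P2-a8. The log2 fold changes were 6.67 (SE 0.31, BH-adjusted p 4.54e-22) and 6.03 (SE 0.34, BH-adjusted p 8.66e-19). In BxPC3 it was at 0.335 and 0.656 CPM in the controls, 8.16 and 8.41 under P1-a2 and 1.54 and 1.44 under P2-a8, with log2 fold changes of 3.997 (SE 0.25, BH-adjusted p 6.70e-07) and 1.53 (SE 0.30, BH-adjusted p 0.009995). P2-a8 reached 4.44 CPM or more in Panc10.05 and stayed at 1.54 CPM or less in BxPC3. The call of EPS8L3 under P2-a8 in BxPC3 was lost without NC replicate 1 (adjusted p 0.0701).

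MYO1A encodes myosin 1A, the motor of the bridges between bundle and membrane. It was at 0.0961 and 0.319 CPM in the Panc10.05 controls, 2.16 and 2.78 under P1-a2 and 2.05 and 2.08 under P2-a8, so the isoforms lay close together there. The log2 fold changes were 3.63 (SE 0.34, BH-adjusted p 2.70e-12) and 3.37 (SE 0.35, BH-adjusted p 1.37e-10). In BxPC3, MYO1A was at 0.149 and 0.219 CPM in the controls, 7.999 and 6.92 under P1-a2 and 1.80 and 2.02 under P2-a8. There the isoforms stood well apart, with log2 fold changes against control of 5.28 (SE 0.28, BH-adjusted p 1.95e-07) and 3.31 (SE 0.32, BH-adjusted p 9.36e-05).

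ESPN, the gene of the bundler espin, already had reads in the BxPC3 controls. ESPN was at 7.07 and 7.76 CPM in those controls, 12.6 and 14.5 under P1-a2 and 8.41 and 6.98 under P2-a8. P1-a2 lay above both other groups, while P2-a8 overlapped the control. Its log2 fold change in BxPC3 was 0.87 (SE 0.13, BH-adjusted p 5.20e-04) for P1-a2 and 0.05 (SE 0.14, BH-adjusted p 0.886) for P2-a8. In Panc10.05, ESPN was at 0.408 and 0.637 CPM in the controls, 5.08 and 8.96 under P1-a2 and 4.38 and 5.66 under P2-a8. Both induced groups stood above the controls and overlapped each other, with log2 fold changes of 3.78 (SE 0.35, BH-adjusted p 9.40e-07) and 3.27 (SE 0.36, BH-adjusted p 1.11e-05).

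The adhesion genes stayed low in both induced lines, and several had almost no control reads. USH1C, which encodes the harmonin scaffold, had 1 and 0 counts in the Panc10.05 controls and reached 1.51 and 1.15 CPM under P1-a2 and 0.726 and 0.676 under P2-a8. The ratio of USH1C to control was 100.4 (exact 95% counting interval 17.7 to 4001) for P1-a2 and 53.7 (9.26 to 2156) for P2-a8, and its adjusted p was 3.32e-11 and 8.02e-08. In the BxPC3 controls USH1C had 0 counts, and it was at 1.69 and 1.51 CPM under P1-a2 and 0.515 and 1.01 under P2-a8. Set against 3 counts per control library, USH1C was at least 16.6-fold higher with P1-a2 and at least 7.88-fold higher with P2-a8 (adjusted p 7.07e-05 and 0.00220). These intervals and floors cover counting error only.

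ANKS4B, the ankyrin repeat protein that links harmonin and myosin 7B, had 0 and 2 counts in the Panc10.05 controls. It was at 0.770 and 1.11 CPM there under P1-a2 and 0.897 and 0.394 under P2-a8, and these groups overlapped. The ratio to control was 36.3 (95% interval 9.73 to 304.9) and 25.9 (6.85 to 219), with adjusted p of 7.26e-08 and 3.86e-06. In BxPC3, ANKS4B had 0 control counts, 3.11 and 2.92 CPM under P1-a2 and 0.286 and 0.184 under P2-a8. It was at least 31.1-fold higher with P1-a2 (adjusted p 4.60e-06) and at least 2.43-fold higher with P2-a8 (adjusted p 0.0148). The latter call was lost in 2 of 8 alternatives, with an adjusted p of up to 0.104 without NC replicate 2.

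MYO7B encodes the motor that carries the adhesion complex to the tips. MYO7B was at 1.22 and 1.94 CPM in the Panc10.05 controls, 3.44 and 5.44 under P1-a2 and 7.20 and 7.16 under P2-a8. Unlike VIL1, it was highest under P2-a8, and no group overlapped another. The log2 fold changes of MYO7B were 1.52 (SE 0.21, BH-adjusted p 4.28e-07) and 2.20 (SE 0.20, BH-adjusted p 3.75e-10). In the BxPC3 controls MYO7B had 0 counts, against 3.76 and 4.35 CPM under P1-a2 and 1.92 and 1.26 under P2-a8. It was at least 41.9-fold higher with P1-a2 and at least 16.4-fold higher with P2-a8 (adjusted p 3.05e-06 and 1.43e-04).

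Of the protocadherins, CDHR2 had few reads and CDHR5 almost none. CDHR2 was at 0.264 and 0.319 CPM in the Panc10.05 controls, 1.03 and 1.30 under P1-a2 and 0.833 and 0.986 under P2-a8, with log2 fold changes of 2.01 (SE 0.36, BH-adjusted p 7.25e-06) and 1.63 (SE 0.38, BH-adjusted p 4.50e-04). In BxPC3 it was at 0.186 and 0.137 CPM in the controls, 0.502 and 0.946 under P1-a2 and 0.286 and 0.367 under P2-a8. The rise of CDHR2 with P1-a2 was 2.18 (SE 0.55, BH-adjusted p 0.0106) and was lost in 2 of 9 alternatives, with an adjusted p of up to 0.142 without P1-a2 replicate 2. With P2-a8 its log2 fold change was 1.02 (SE 0.62, BH-adjusted p 0.398). CDHR5, the partner of CDHR2 in the tip links, had 1 count in 1 Panc10.05 library under P1-a2 and 0 in the other 5, and 0 counts in all 6 BxPC3 libraries, which is at or under the floor of 3 counts.

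PDZK1 encodes a scaffold with PDZ domains that anchors transporters in the apical membrane. It was at 0.192 and 0.232 CPM in the Panc10.05 controls, 9.45 and 10.96 under P1-a2 and 13.7 and 13.5 under P2-a8. Its log2 fold changes were 5.58 (SE 0.22, BH-adjusted p 1.75e-24) and 5.99 (SE 0.21, BH-adjusted p 1.80e-25). In BxPC3, PDZK1 was at 0.260 and 0.246 CPM in the controls, 2.79 and 3.97 under P1-a2 and 0.686 and 1.22 under P2-a8. There it rose by 3.73 (SE 0.38, BH-adjusted p 2.83e-05) and 1.90 (SE 0.45, BH-adjusted p 0.0263) on the log2 scale, and the latter was lost in 3 of 9 alternatives, with an adjusted p of up to 0.179 without NC replicate 2.

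Per kilobase of exon, the order of the members under P1-a2 in Panc10.05 was VIL1, PDZK1 (4.11 CPM per kb), EPS8L3 (2.01), ESPN (1.01), MYO1A (0.557), MYO7B (0.504), USH1C (0.272), CDHR2 (0.218) and ANKS4B (0.216). In that order MYO1A and MYO7B overlapped, as did USH1C and CDHR2, and CDHR2 and ANKS4B, while other neighbours did not. In BxPC3 under P1-a2 it was VIL1, EPS8L3 (2.38), ESPN (1.95), MYO1A (1.68), PDZK1 (1.364), ANKS4B (0.692), MYO7B (0.461), USH1C (0.327) and CDHR2 (0.135), where only MYO1A and PDZK1 overlapped. VIL1 stood first in both lines and CDHR2 and USH1C near the end. The tables were scaled separately, so these levels are not tested across lines.

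The direct comparison of the isoforms differed between the lines. In Panc10.05, 3 members were higher under P1-a2 than under P2-a8 (VIL1, EPS8L3 and USH1C) and 2 were lower (MYO7B and PDZK1), where 22.2% of all genes were called higher and 24.7% lower. In BxPC3, 7 members were higher under P1-a2 and 0 lower, where 11.6% of all genes were higher and 10.8% lower. CDHR2 and USH1C were the members not past the threshold there. HNF4A was lower under P1-a2 in Panc10.05 (log2 fold change -1.66, SE 0.10, BH-adjusted p 5.02e-17) and did not pass the threshold in BxPC3 (-0.33, SE 0.17, BH-adjusted p 0.217). The median over the 9 members was 0.50 in Panc10.05 and 1.83 in BxPC3, beside -0.0023 and -0.01 over all genes.

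Villin was higher with P1-a2 in both lines. Its log2 fold change between isoforms was 1.30 (SE 0.08, BH-adjusted p 4.33e-17) in Panc10.05 and 2.33 (SE 0.17, BH-adjusted p 1.13e-04) in BxPC3. EPS8L3 was also higher with P1-a2 in both, by 0.64 (SE 0.15, BH-adjusted p 3.30e-04) and 2.47 (SE 0.21, BH-adjusted p 2.68e-05). In Panc10.05, USH1C was higher by 0.91 (SE 0.31, BH-adjusted p 0.0148), a call lost in 4 of 9 alternatives, with an adjusted p of up to 0.163 without P1-a2 replicate 1. In BxPC3 the largest difference among the members was that of ANKS4B, at 3.65 (SE 0.34, BH-adjusted p 9.33e-05), and MYO1A differed by 1.96 (SE 0.19, BH-adjusted p 6.59e-05).

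MYO7B and PDZK1 took opposite sides in the 2 lines. In Panc10.05 MYO7B was lower under P1-a2 by a log2 fold change of -0.68 (SE 0.17, BH-adjusted p 0.00159), and PDZK1 by -0.41 (SE 0.11, BH-adjusted p 0.00207). Without P1-a2 replicate 1 the adjusted p was 0.0692 for MYO7B, 0.0624 for PDZK1 and 0.163 for USH1C, and ESPN passed the threshold (log2 fold change 0.85, BH-adjusted p 7.04e-05), so that 3 members were called. With all libraries, ESPN was at 0.51 (SE 0.23, BH-adjusted p 0.0995), and it passed in 3 of 9 alternatives. In BxPC3 MYO7B was higher under P1-a2 by 1.35 (SE 0.25, BH-adjusted p 0.00394) and PDZK1 by 1.83 (SE 0.30, BH-adjusted p 0.00162).

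**Figure D2:**
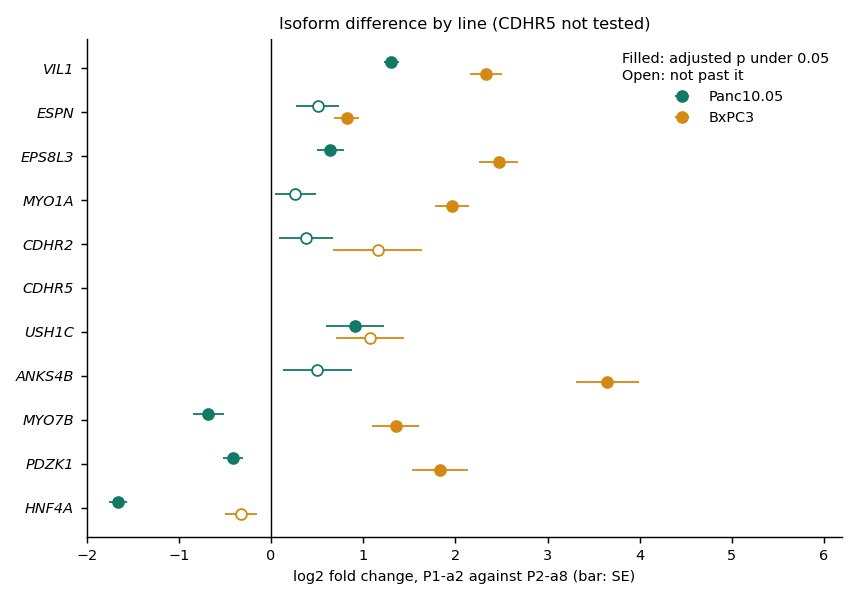
Log2 fold change of each member and of HNF4A between P1-a2 and P2-a8 in Panc10.05 (green) and BxPC3 (orange), with bars of 1 SE; filled points are past the threshold. All tested members lie to the right of 0 in BxPC3, while MYO7B (-0.68) and PDZK1 (-0.41) lie to the left in Panc10.05.

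The difference between lines was itself tested as an interaction in a joint fit of 12 libraries. For P1-a2 against P2-a8, 6 of 9 members differed between lines, where 22.3% of all genes did: VIL1 (-1.02, SE 0.20, BH-adjusted p 0.00187), EPS8L3 (-1.82, adjusted p 1.62e-05), MYO1A (-1.69, adjusted p 3.56e-04), ANKS4B (-3.14, adjusted p 4.77e-04), MYO7B (-2.03, adjusted p 1.79e-04) and PDZK1 (-2.24, adjusted p 4.43e-06). All 6 differences, given as Panc10.05 minus BxPC3 on the log2 scale, were negative, and so was that of HNF4A (-1.33, SE 0.21, BH-adjusted p 1.71e-04). For P1-a2 against control 5 members differed, where 36.4% of all genes did. ESPN (2.91, adjusted p 3.58e-05), EPS8L3 (2.68, adjusted p 6.79e-04) and PDZK1 (1.85, adjusted p 0.0154) rose more in Panc10.05, and MYO1A (-1.64, adjusted p 0.0453) and MYO7B rose more in BxPC3. For P2-a8 against control 5 differed, where 23.5% of all genes did: VIL1 (2.49, adjusted p 0.0255), ESPN (3.22, adjusted p 4.14e-05), EPS8L3 (4.50, adjusted p 3.08e-06) and PDZK1 (4.09, adjusted p 4.86e-05) rose more in Panc10.05 and MYO7B rose more in BxPC3. The sizes for MYO7B rest on 0 counts in the BxPC3 controls and are not exact. HNF4A rose more in Panc10.05 for both isoforms, by 2.35 (adjusted p 0.00216) and 3.68 (adjusted p 5.41e-05).

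AsPC-1 showed most members at far higher levels without any induction. Per kilobase of exon in sgNC, EPS8L3 (31.6 CPM per kb), MYO1A (31.2), USH1C (31.0) and CDHR2 (30.1) led, and each overlapped the next in that order. ANKS4B (15.0), CDHR5 (14.5), VIL1 (12.8) and MYO7B (11.2) followed, each overlapping the next. ESPN (0.322) and PDZK1 (0.0707) stood far below. CDHR5, which was near 0 in the induced lines, was thus at the level of ANKS4B here, and PDZK1, which reached 9.45 CPM or more under either isoform in Panc10.05, had between 3 and 10 counts in each AsPC-1 library.

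With the guides of a target taken as replicates, repression from both promoters lowered 7 of 9 tested members. Repression from 1 promoter lowered 1 or none in that fit. By single guide, sgP1E lowered 3 members, sgP1J 4, sgP2D 2 and sgP2G 0, as given below with the shares of all genes. Against sgNC, 17.8% of all genes were called higher and 17.8% lower with sgDual, 0.100% higher and 0.165% lower with sgP1, and 1.66% higher and 1.76% lower with sgP2. With sgDual the members' median log2 fold change was -1.56, beside 0.00 over all genes. Beside the fall with sgDual, the summed fibroblast markers were higher, at 280 to 301 CPM against 165 to 179, with 2 of 6 called higher, and their part in it was not tested. The member called with sgP1 was MYO1A, and the count with sgP1 ranged from 0 to 3 over the alternatives. With sgP2 the count was 0 by edgeR's quasi-likelihood test, against 2 members (MYO1A and USH1C) at an unadjusted p under 0.05 and 1 by DESeq2. The comparisons with sgNC share its 2 libraries.

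**Figure D3:**
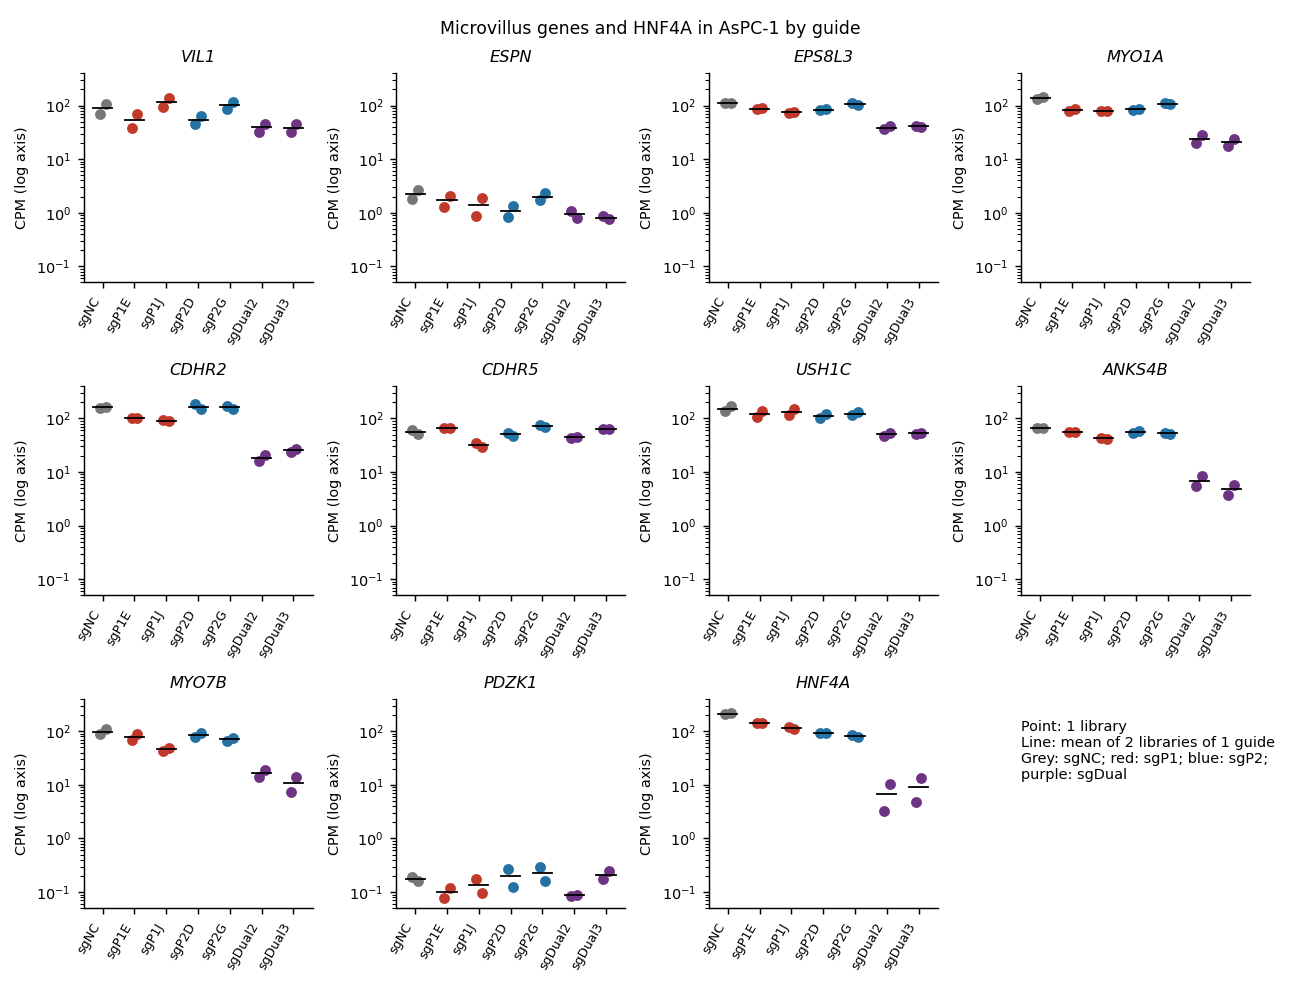
Level of each member and of HNF4A in CPM on a log axis in the 14 AsPC-1 libraries, by guide. Points are libraries and lines are means of 2; ANKS4B falls from 65.3 and 65.4 CPM with sgNC to between 3.73 and 8.35 with the sgDual guides, while CDHR5 lies between 29.5 and 76.8 CPM in every guide.

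In the adhesion complex, ANKS4B fell most. ANKS4B was at 65.3 and 65.4 CPM with sgNC, 5.42 and 8.35 with sgDual2 and 3.73 and 5.83 with sgDual3. The mean with sgDual was 8.92% of sgNC, a log2 fold change of -3.48 (SE 0.20, BH-adjusted p 1.42e-07). With sgP1 it was at 55.7, 56.3, 43.8 and 40.9 CPM (-0.41, SE 0.20, BH-adjusted p 0.582) and with sgP2 at 53.1, 58.5, 52.6 and 52.1 (-0.27, SE 0.20, BH-adjusted p 0.521). Those libraries all lay below both sgNC libraries, but neither difference passed the threshold.

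CDHR2 was at 156 and 166 CPM with sgNC and at 16.1, 20.4, 23.7 and 27.2 with sgDual. That is 13.6% of sgNC, a log2 fold change of -2.88 (SE 0.15, BH-adjusted p 2.17e-08). CDHR2 also separated the single targets: it was at 101.5, 103.6, 92.6 and 88.5 CPM with sgP1 and at 183, 149, 171 and 149 with sgP2. The sgP1 libraries lay below all of sgP2, and sgP2 was higher by a log2 fold change of 0.75 (SE 0.12, BH-adjusted p 0.00378). It was the single member called between sgP2 and sgP1, where 2.17% of all genes were called higher and 2.13% lower. Against sgNC, CDHR2 with sgP1 was at 59.9% (log2 fold change -0.74, SE 0.15, BH-adjusted p 0.0551), which passed the threshold in 4 of 13 alternatives, and with sgP2 at 101.1% (0.02, adjusted p 0.972).

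MYO7B was at 87.4 and 108.9 CPM with sgNC and at 13.9, 18.8, 7.22 and 14.05 with sgDual, a log2 fold change of -2.86 (SE 0.32, BH-adjusted p 4.58e-05). With sgP1 it was at 68.9, 87.1, 43.6 and 49.7 CPM and with sgP2 at 78.0, 92.0, 64.5 and 76.1, with adjusted p of 0.587 and 0.640. USH1C was at 138 and 167 CPM with sgNC and at 47.4, 54.4, 52.0 and 53.1 with sgDual, which is 34.0% of sgNC (log2 fold change -1.56, SE 0.13, BH-adjusted p 8.91e-07). USH1C kept the largest share of its control level among the adhesion genes that fell. With the single targets USH1C lay between 101 and 150.3 CPM, with adjusted p of 0.570 for sgP1 and 0.115 for sgP2. The latter passed the threshold in 1 of 13 alternatives, that with the replicate number as a term (adjusted p 0.0172).

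CDHR5 did not follow its complex. CDHR5 was at 60.3 and 51.8 CPM with sgNC and at 42.6, 45.4, 62.6 and 64.5 with sgDual. The groups overlapped, and the log2 fold change was -0.06 (SE 0.33, BH-adjusted p 0.910). It differed between guides of each target instead: 66.2 and 64.8 CPM with sgP1E against 35.2 and 29.5 with sgP1J, and 54.1 and 47.9 with sgP2D against 76.8 and 68.9 with sgP2G. In the fit by guide, the log2 fold change of CDHR5 was 1.02 (SE 0.10, BH-adjusted p 2.53e-05) between sgP1E and sgP1J, -0.52 (SE 0.10, BH-adjusted p 0.0173) between sgP2D and sgP2G and -0.53 (SE 0.10, BH-adjusted p 0.0236) between sgDual2 and sgDual3. CDHR5 was the single member called in each of the 3, where 14.5%, 1.69% and 0.883% of all genes were called in either direction.

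In the actin core, MYO1A was at 129.8 and 147 CPM with sgNC and at 19.7, 28.3, 17.9 and 23.7 with sgDual. The mean was 16.2% of sgNC, a log2 fold change of -2.63 (SE 0.15, BH-adjusted p 5.04e-08). With sgP1, MYO1A was at 79.1, 85.0, 78.0 and 79.3 CPM, a fall by 0.78 on the log2 scale (SE 0.15, BH-adjusted p 0.0378). That call was lost in 8 of 13 alternatives, among them each of the sgNC libraries left out, with an adjusted p between 2.998e-04 and 0.424 over all of them. With sgP2, MYO1A was at 82.9, 87.4, 109.9 and 107 CPM (-0.51, SE 0.15, BH-adjusted p 0.0708), and it passed the threshold in 4 of 13 alternatives.

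EPS8L3 was at 110.0 and 109.8 CPM with sgNC and at 35.7, 41.5, 41.3 and 40.4 with sgDual, a log2 fold change of -1.47 (SE 0.11, BH-adjusted p 3.88e-07). With the single targets it lay between 72.5 and 109.2 CPM, with adjusted p of 0.132 for sgP1 and 0.336 for sgP2. ESPN was low throughout, at 1.77 and 2.697 CPM with sgNC and 1.09, 0.809, 0.865 and 0.762 with sgDual. Its log2 fold change was -1.34 (SE 0.35, BH-adjusted p 0.00851), and it was lost in 2 of 13 alternatives, with an adjusted p of up to 0.119 without sgNC replicate 2.

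VIL1, the member that rose most in Panc10.05, did not pass the threshold in AsPC-1 with sgDual in the main fit. With the replicate number as a term VIL1 passed (adjusted p 0.0395). Its library numbered 2 lay above that numbered 1 in 7 of 7 guides. VIL1 was at 69.7 and 107 CPM with sgNC and at 32.6, 46.0, 31.9 and 45.5 with sgDual, which is 44.1% of sgNC. All 4 lay below both controls, and the log2 fold change was -1.18 (SE 0.45, BH-adjusted p 0.0638), past the threshold in 3 of 13 alternatives and as high as 0.346 without sgNC replicate 2. The spread came from the single guides as well: 37.9 and 69.8 CPM with sgP1E, 93.1 and 140.1 with sgP1J, 44.6 and 64.3 with sgP2D and 86.0 and 116 with sgP2G. VIL1 was thus on both sides of sgNC with guides of 1 target.

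PDZK1 was at 0.190 and 0.161 CPM with sgNC, between 0.0780 and 0.175 with sgP1, between 0.123 and 0.300 with sgP2 and between 0.0861 and 0.245 with sgDual. At 3 to 10 counts per library a difference was not detectable.

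The dual guides were also set against each single target, again with the guides of a target taken as replicates. Against sgP1, 7 of 9 members were lower and 0 higher, where 18.6% of all genes were called higher and 19.7% lower. The 7 were VIL1, EPS8L3, MYO1A, CDHR2, USH1C, ANKS4B and MYO7B, with log2 fold changes from -1.03 (EPS8L3) to -3.08 (ANKS4B). The call of VIL1 was lost in 11 of 17 alternatives, with an adjusted p from 0.00764 to 0.404. Against sgP2, 7 were lower and 0 higher, where 22.8% of all genes were higher and 23.5% lower, from -0.82 (ESPN) to -3.21 (ANKS4B). ESPN took the place of VIL1 there, and its call was lost in 8 of 17 alternatives, with an adjusted p of up to 0.527 without guide sgP2G.

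Whether the dual guides did more than both single targets together was tested on the log2 scale, where the sum of sgP1 and sgP2 is the change that a product of both would give. The guides of a target were again taken as replicates, although sgP1E and sgP1J differed in 14.5% of all genes, and the sum was not tested by guide. The titles do not say whether the dual guides combine those of the single targets. For 6 of 9 members sgDual lay below that sum, where 10.6% of all genes did. ANKS4B had a sum of -0.68 and a change of -3.48 with sgDual, a difference of -2.80 (SE 0.28, BH-adjusted p 2.90e-05). CDHR2 differed by -2.16 (SE 0.20, BH-adjusted p 1.39e-05), MYO7B by -1.87 (SE 0.43, BH-adjusted p 0.0101) and MYO1A by -1.33 (SE 0.20, BH-adjusted p 4.12e-04). USH1C (-0.90, adjusted p 0.00206) and EPS8L3 (-0.81, adjusted p 0.00150) differed less. VIL1 (-0.94, SE 0.61, BH-adjusted p 0.312), ESPN (-0.27, adjusted p 0.733) and CDHR5 (-0.01, adjusted p 0.992) did not pass the threshold. HNF4A itself lay below its sum by -2.71 (SE 0.52, BH-adjusted p 0.00383).

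**Figure D4:**
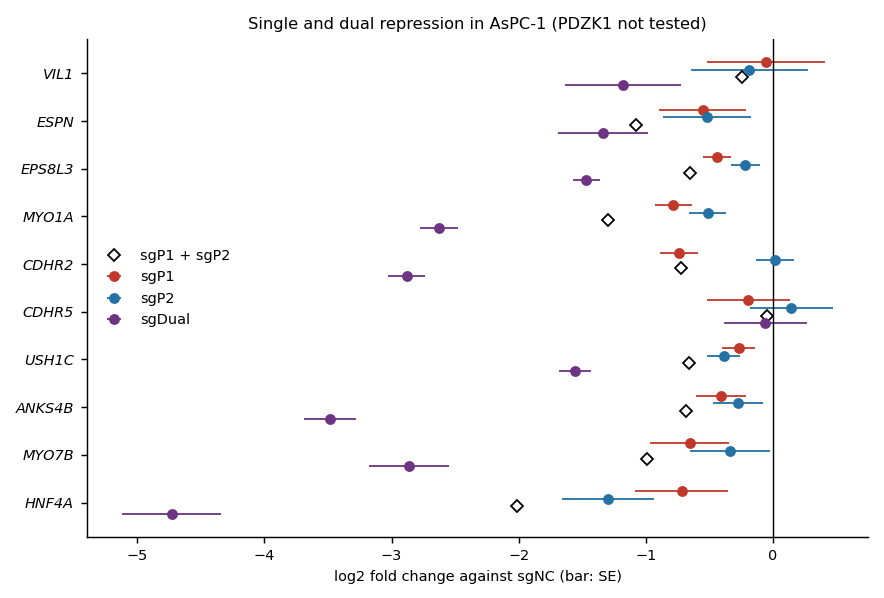
Log2 fold change against sgNC with sgP1 (red), sgP2 (blue) and sgDual (purple), with bars of 1 SE, and the sum of sgP1 and sgP2 (open diamonds). The sgDual point lies left of the diamond by 0.81 or more for EPS8L3, MYO1A, CDHR2, USH1C, ANKS4B and MYO7B, and on it for CDHR5.

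By single guide against sgNC, in a fit with 7 groups, sgP1E lowered 3 members (EPS8L3, MYO1A and CDHR2), where 4.81% of all genes were called higher and 3.80% lower. Guide sgP1J lowered the same 3 and CDHR5, where 1.26% were higher and 1.78% lower. Guide sgP2D lowered EPS8L3 and MYO1A, where 4.46% were higher and 4.06% lower. Guide sgP2G lowered none and raised CDHR5, where 4.31% were higher and 3.85% lower. Guide sgDual2 lowered all 9 tested members, where 18.7% were higher and 18.2% lower, and sgDual3 lowered 8, all but CDHR5, where 18.8% were higher and 18.4% lower. VIL1 passed the threshold with both dual guides in this fit (adjusted p 0.0339 and 0.0315). These comparisons again share the sgNC libraries.

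Other genes of the brush border were read from lists named by function, and their counts stand beside the shares of all genes given above. As with the members, genes near 0 in the controls of the induced lines could be tested only through the induced groups. Of 28 brush border enzymes and transporters, 13 were tested in Panc10.05, of which 7 rose and 2 fell with P1-a2 and 8 rose and 1 fell with P2-a8. In BxPC3, 18 were tested, of which 13 rose and 1 fell with P1-a2 and 8 rose and 0 fell with P2-a8. ANPEP, aminopeptidase N, went from 0.0410 CPM in the BxPC3 controls to 155 with P1-a2 and 50.2 with P2-a8. SLC15A1, the oligopeptide transporter, rose with P1-a2 in both lines. In Panc10.05 it went from 2.20 to 27.3 CPM, and BxPC3 took it from 0.252 to 39.1. GGT1, gamma-glutamyltransferase, rose from 0.238 to 3.22 CPM with P1-a2 in Panc10.05, and MEP1A, a meprin protease subunit, from 0.179 to 2.82 in BxPC3. AMN, the membrane anchor of cubilin, fell in both lines with P1-a2, to 0.902 CPM from 4.04 in Panc10.05 and to 4.11 from 6.22 in BxPC3. In AsPC-1 with sgDual, 6 of 14 fell and 1 rose: ANPEP went from 297 to 30.4 CPM, SLC9A3, the apical sodium/proton exchanger, from 80.9 to 13.3, and SLC7A9, a cystine transporter subunit, from 2.98 to 0.122, while ACE rose from 2.50 to 4.04.

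The wider microvillus list held genes called in both directions. Of 28 genes for other core, motor and trafficking proteins, 27 were found in the reference and 26 tested in Panc10.05. With P1-a2, 8 rose and 10 fell, where 31.5% of all genes were called higher and 30.5% lower. With P2-a8, 12 rose and 7 fell, where 23.7% were higher and 22.5% lower. In BxPC3, 13 of 27 rose and 2 fell with P1-a2, where 17.1% of all genes were higher and 14.9% lower. With P2-a8, 5 rose and 1 fell there, where 4.30% were higher and 2.69% lower. COBL, an actin nucleator of microvilli, rose with P1-a2, in Panc10.05 from 34.3 to 97.4 CPM and in BxPC3 from 2.42 to 33.7. NHERF1, a PDZ scaffold like PDZK1, rose from 150.5 to 390.8 CPM in Panc10.05, whereas NHERF2 fell from 49.5 to 13.9. In AsPC-1 with sgDual, 10 of 27 fell and 3 rose, where 17.8% of all genes were called lower and 17.8% higher. TMIGD1 fell from 7.85 to 0.569 CPM, NHERF1 from 242 to 85.6 and BAIAP2L2 from 53.9 to 20.001, while NHERF2 rose from 142 to 269.9, MYO1D from 21.8 to 38.5 and MYO6 from 35.3 to 60.6.

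Relatives of the members were read in the same way, with no test of a difference between relatives and members. Of all genes, 17.8% were called higher and 17.8% lower with sgDual. With P1-a2 the shares were 31.5% higher and 30.5% lower in Panc10.05, and 17.1% and 14.9% in BxPC3. Of 7 genes of the villin and gelsolin family other than VIL1, 5 rose and 0 fell with sgDual in AsPC-1, led by GSN (gelsolin), from 49.9 to 391 CPM (log2 fold change 2.97, SE 0.19, BH-adjusted p 2.09e-07). SCIN rose from 2.25 to 6.33 CPM and AVIL from 0.639 to 1.62. With P1-a2, GSN fell in Panc10.05 from 137.8 to 30.8 CPM (-2.16, adjusted p 1.36e-27) and in BxPC3 from 429 to 331 (-0.38, adjusted p 0.00291). In all, 1 rose and 3 fell of 6 tested in Panc10.05 and 1 rose and 3 fell of 7 in BxPC3. The rise of the fibroblast markers with sgDual, given above, stood beside this list's change as well. Among 13 genes of hair cell stereocilia, which use counterparts of the adhesion complex, 7 were tested in Panc10.05 (3 rose and 1 fell with P1-a2), 7 in BxPC3 (1 rose and 1 fell) and 5 in AsPC-1 (2 rose and 1 fell with sgDual). MYO7A, the hair cell counterpart of MYO7B, rose with P1-a2 in Panc10.05 from 1.19 to 2.76 CPM and rose with sgDual in AsPC-1 from 1.01 to 2.92. USH1G, the counterpart of ANKS4B, fell with P1-a2 in BxPC3 from 20.3 to 4.99 CPM.

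Across the 10 group means of the 3 lines, each centred within its line on the log2 scale, the genes nearest to the median profile of 8 members were found by the root mean square difference. Among non-members these were NAT2 (0.36), CREB3L3 (0.37), HKDC1 (0.38), TM4SF5 (0.38) and GGT4P (0.47), out of 14523 genes. Among the members MYO1A was nearest at 0.16 (rank 1) and VIL1 farthest at 1.33 (rank 1080 among all these genes). The members make the median profile themselves, so their differences cannot be set against those of non-members. GGT4P is a pseudogene of a multigene family, and its counts are uncertain. The groups within a line share their control, so this likeness is a description.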

How the data were processed

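Poly(A) RNA of 26 libraries was sequenced with a directional kit, and the authors deposited raw counts per Ensembl gene in 1 table for each line. Per the submitters' processing notes, the tools were STAR 2.7.9a, cutadapt 1.16, featureCounts 1.6.3 and DESeq2 1.36.0, with GRCh38. The annotation and the strand setting of the counting are not given in the sources used here. Groups came from the sample titles. Total counts per library ran from 26079388 to 50662077, so 3 counts correspond to 0.0585 to 0.116 CPM.

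From the deposited counts, each line was fitted separately in edgeR 4.0.16 (R 4.3.3): filterByExpr by group, scaling by trimmed mean of M-values, robust dispersions and the quasi-likelihood test, with Benjamini-Hochberg adjustment over 17247 genes in Panc10.05, 17635 in BxPC3 and 16992 in AsPC-1 and a threshold of 0.05. The standard error is the log2 fold change divided by the square root of F. Where the controls had few counts it can be smaller than counting error and understates the uncertainty of the fold. Guides were fitted with 7 groups, and the difference between the induced lines in a joint fit of 19372 genes. Where all controls had 0 counts, folds were set against 3 counts per control library. Where the controls had 1 to 3 counts, a ratio with an exact interval is given. The steps were tested on simulated data. DESeq2 1.42.0, no filter, scaling by total counts, only the groups compared, the replicate number as a term, each library left out and each guide left out were tried as alternatives. Named genes are the members, HNF4A, at most 3 called genes per direction, list and comparison with the largest change and a line mean not under 1 CPM, and the 5 non-members nearest to the members' median profile. The members and lists were chosen with earlier results of these data known.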

Additional observations from a re-analysis of the deposited data

Results flagged for a closer look

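ANKS4B in sgP2D replicate 2 of AsPC-1 was at 58.5 CPM, apart from the other 3 sgP2 libraries, which lay between 52.1 and 53.1. It stood far from the others by Dixon's test, 1 of 33 groups of 4 libraries tested, where chance sets apart about 1 in 20.

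In the test of the difference itself, 16 effects differed between Panc10.05 and BxPC3 (log2 fold change in Panc10.05 minus that in BxPC3). For P1-a2 against control these were ESPN (2.91), EPS8L3 (2.68), MYO1A (-1.64), MYO7B (-8.78) and PDZK1 (1.85). For P2-a8 against control they were VIL1 (2.49), ESPN (3.22), EPS8L3 (4.50), MYO7B (-6.75) and PDZK1 (4.09). Between the isoforms they were VIL1 (-1.02), EPS8L3 (-1.82), MYO1A (-1.69), ANKS4B (-3.14), MYO7B (-2.03) and PDZK1 (-2.24). The MYO7B values against control rest on 0 counts in the BxPC3 controls and are not exact sizes. Line, dose, control construct and the number that opens the sample titles cannot be told apart.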

How the results depend on the processing

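Over all alternatives, 1178 values of single members kept their direction and side of the threshold, 43 lost the threshold, 34 gained it and 38 changed sign, and the causes were not tested. The 9 calls of each isoform against control in Panc10.05 held throughout. Counts of members past the threshold moved as follows. Between isoforms in Panc10.05 the count was 3 without P1-a2 replicate 1, and for P2-a8 in BxPC3 it was 4 without NC replicate 1. With sgP1 it was 0 with no filter, 0 with scaling by total counts, 3 by DESeq2, 2 without guide sgP1E, 2 without sgP1J and 0 to 1 with single libraries left out. With sgP2 it was 1 by DESeq2, 1 with only the groups compared and 1 without guide sgP2G, and between sgP2 and sgP1 it was 3 without sgP1E. With no filter the single guides gave 6 (sgP1E), 7 (sgP1J), 5 (sgP2D) and 5 (sgP2G) against sgNC, and guides of 1 target differed in 4, 4 and 4. DESeq2 gave 2, 2 and 2 for those 3 pairs, and scaling by total counts gave 2 for sgP1E against sgP1J.

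The labels do not say that a replicate number marks a shared culture or day. Deviations of same-numbered libraries correlated at -0.0119 to 0.0073 in Panc10.05 and 0.0727 to 0.131 in BxPC3 (over 0.1 in 2 of 3 pairs). In AsPC-1 they correlated at 0.0772 to 0.339, positive in all 21 pairs of guides and over 0.1 in 15. Among the sgP1, sgP2 and sgNC guides the range was 0.217 to 0.339. That is a hint of pairing in AsPC-1, not over 0.1 in every pair, and the main fits leave the replicate number out. With the replicate number as a block, the members past the threshold were 9, 9 and 6 in Panc10.05 (P1-a2, P2-a8, isoforms) and 9, 7 and 8 in BxPC3. In AsPC-1 they were 2 (sgP1), 2 (sgP2) and 8 (sgDual) against sgNC, 1 between sgP2 and sgP1, and 8 and 8 for sgDual against sgP1 and sgP2. The block ended no call. It added VIL1 for sgDual against sgNC (adjusted p 0.0395) and sgP2 (0.0320), ESPN for sgDual against sgP1 (0.0417), MYO1A (0.0390) and USH1C (0.0172) with sgP2, CDHR2 with sgP1 (0.04998), and, between isoforms, ESPN in Panc10.05 (0.0149) and USH1C in BxPC3 (0.0267).

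Changes of sign were all of members not past the threshold. With single libraries left out, ESPN with P2-a8 in BxPC3 ranged from -0.11 to 0.16. Against sgNC, CDHR2 with sgP2 ranged from -0.0444 to 0.0542, VIL1 from -0.41 to 0.29 with sgP1 and from -0.47 to 0.15 with sgP2, and CDHR5 with sgDual from -0.16 to 0.0529. CDHR5 for sgDual against sgP1 ranged from -0.0444 to 0.32, and between sgP2 and sgP1 VIL1 ranged from -0.39 to 0.22 and ESPN from -0.22 to 0.22. With no filter CDHR2 with sgP2 was -0.0054. Without sgP1E, VIL1 with sgP1 was 0.39. Without sgP1J, CDHR5 was 0.22 with sgP1 and -0.28 for sgDual against sgP1, and between sgP2 and sgP1 VIL1 was 0.54, ESPN -0.0907, CDHR5 -0.0807, ANKS4B -0.0505 and MYO7B -0.0052. Without sgP2D, VIL1 was 0.19 with sgP2 and 0.25 against sgP1, and CDHR2 with sgP2 was -0.0133. Without sgP2G, CDHR5 was -0.14 with sgP2 and 0.0871 for sgDual against sgP2, and ESPN between sgP2 and sgP1 was -0.47. Without sgDual2, CDHR5 with sgDual was 0.19 against sgNC and 0.0428 against sgP2, and without sgDual3 it was -0.15 against sgP1.

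Over all genes, calls with sgP1 numbered 45, against 81 with no filter, 127 with the block, 248 by DESeq2 and 7 with only the groups compared. With sgP2 they numbered 581, against 972, 1148 and 1103 under the last 3. Between sgP2 and sgP1 they numbered 731, against 1204, 1272 and 189. For P2-a8 in BxPC3 they numbered 1232, against 1982 with no filter and 2886 with the block, and between isoforms there 3963, against 5992 with the block. With no filter, sgP1J against sgNC gave 1012 (517 with it), sgP2D against sgP2G 649 (288) and sgDual2 against sgDual3 417 (150). Scaling by total counts moved the share of higher calls from 37.8% to 47.9% with sgP1, from 48.5% to 59.1% with sgP2, from 61.5% to 51.8% with P2-a8 in BxPC3 and from 48.6% to 36.5% for sgDual against the sum. Counts were too few to test PDZK1 in AsPC-1 and CDHR5 in the induced lines, and few counts limit every fold against controls with under 3 counts. Whether depth accounts for this was not tested.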

Other observations

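In AsPC-1 the library numbered 2 lay above the library numbered 1 in 7 of 7 guides for VIL1, USH1C and MYO7B. Over all tested genes this held for 8.35%, and the library numbered 2 lay above in 0 of 7 guides for 10.2%. The labels do not say what the number stands for.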
